A study of Mus musculus with 2 samples.

Results

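The genes described here are 34 genes of the endothelium and endocardium, measured in RNA from the heart of mouse embryos at embryonic day 13.5 (E13.5). They were chosen by symbol: gene identifiers in the gene tables were matched, without version, to GENCODE names on the mm10 assembly (GRCm38). All 34 were found among 43346 Ensembl genes, of which 21474 were protein-coding. The study holds 1 group of 2 libraries, replicates 1 and 2, from healthy B6NCrl embryos. Per the labels, these are biological replicates of whole heart tissue with male and female embryos pooled, and both tissue samples stand under the same donor entry. The labels name no mutant genotype, treatment or other time point, so levels can be described and related genes compared within a library, but no condition can be tested. With 2 libraries of 1 group no exact test can be made, and no p-value is given.

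Endothelial cells line blood and lymphatic vessels, and the endocardium is the endothelium of the heart chambers, which also gives rise to the cushion mesenchyme that forms the valves. Their identity is set by ETS-family factors (Erg, Fli1, Ets1) and SoxF factors (Sox7, Sox17, Sox18). Their integrity rests on the cadherin of endothelial junctions (Cdh5), and their response to ligands on receptors such as the angiopoietin receptor Tek. In the embryonic heart, the endocardium depends on the transcription factor Nfatc1 for valve formation, coronary vessels are being built, and lymphatic vessels under Prox1 are beginning to form.

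Levels are given as TPM, a measure scaled to transcript length and to the library's total, so that values of different genes may be set side by side. All 34 genes were detected, that is, they reached 1 TPM in both libraries, against 57.3% of all protein-coding genes. The median of their mean levels was 29.6 TPM, and 23 of 34 lay above 15.1 TPM, the median of the protein-coding genes that were detected. Ramp2, Egfl7, Cav1 and Plvap had means above 100 TPM, 10 genes had means of 50 TPM or more, and 30 had means of 10 TPM or more. The 4 genes below 10 TPM were Sox17, Erg, Klf4 and Angpt2. By role, the median was 53.6 TPM for the 8 adhesion and surface genes, 41.8 for the 4 caveolar, nitric oxide and lipid handling genes, and 37.4 for the 7 receptors and ligands. It was 24.1 TPM for the 5 matrix and angiogenic protein genes and 14.0 for the 10 transcription factors. Because the RNA came from whole tissue, fewer endothelial cells and less RNA per endothelial cell cannot be told apart in any of these values.

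**Figure D1:**
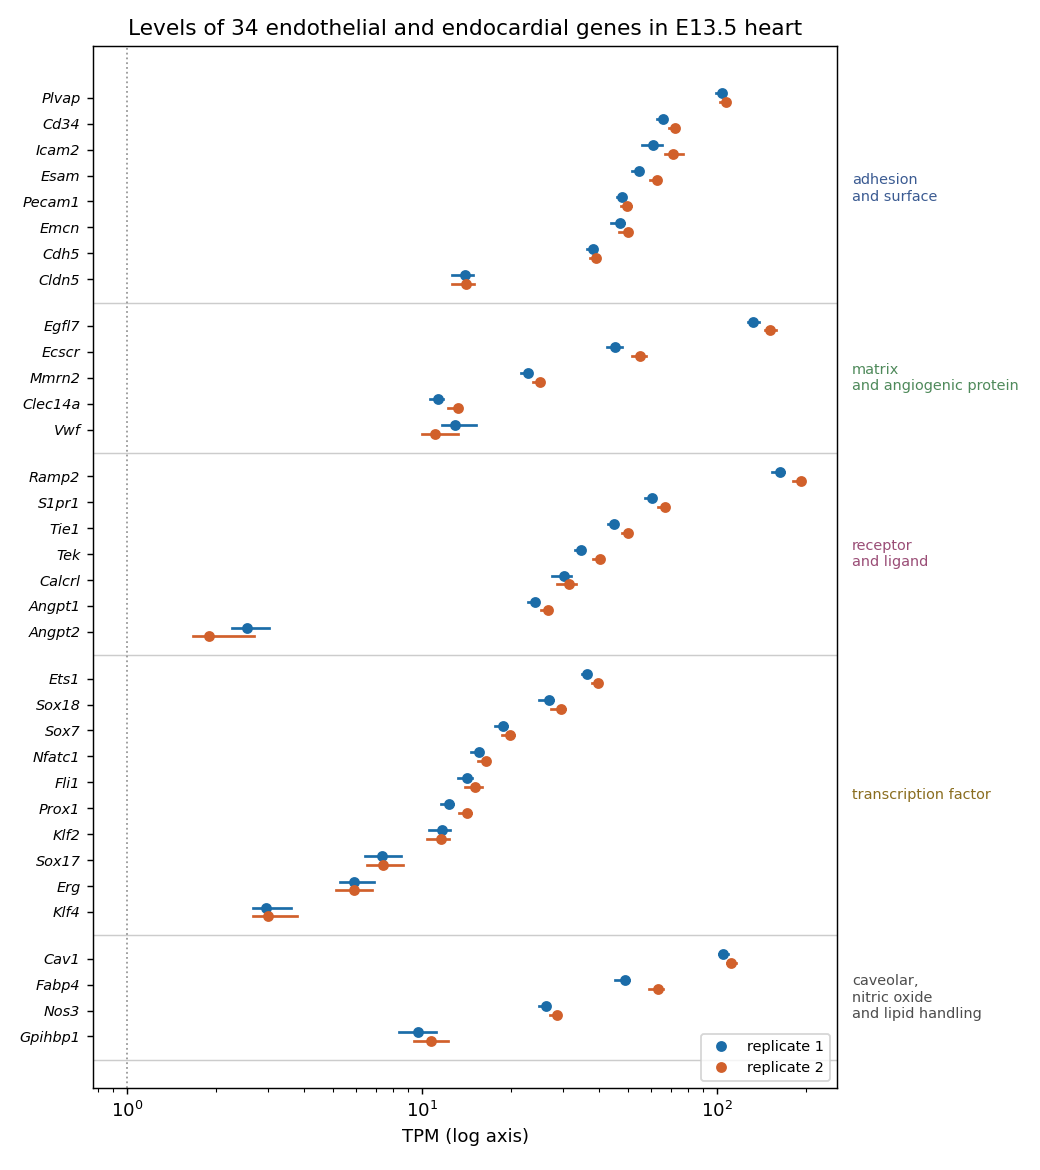
Levels of the 34 genes in TPM (log axis), grouped by role; points are the 2 libraries, lines the credibility intervals deposited with each value, and the dotted line marks 1 TPM. Ramp2 stands highest, at 164 and 193 TPM, and Angpt2 lowest, at 2.56 and 1.90 TPM.

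The junction and adhesion genes ran from 14.0 TPM for Cldn5 to 65.8 TPM for Icam2 by mean. Pecam1 (CD31), the platelet and endothelial adhesion molecule on chromosome 11 (106654217 to 106750628, minus strand, GENCODE M21), had 47.8 TPM in replicate 1 and 49.7 in replicate 2. Cdh5, the VE-cadherin of adherens junctions on chromosome 8 (104101625 to 104144511, plus strand), had 38.2 and 39.0 TPM. Cldn5, the main claudin of endothelial tight junctions, had 14.0 and 14.1 TPM. The libraries gave nearly the same value for each of these 3 genes, and their order was the same in both. Esam, an adhesion molecule of endothelial tight junctions, had 54.3 and 62.7 TPM. Icam2, an adhesion molecule that endothelium carries without stimulation, had 60.6 and 71.0 TPM. Both were higher in replicate 2 on the TPM scale and on scaled counts, where Esam had a log2 ratio of 0.08 and Icam2 of 0.14. Icam2 and Pecam1 lie 266 kb apart on chromosome 11 with 2 protein-coding genes between them. Ratios were then taken within each library and called where the deposited credibility intervals of the genes overlapped in neither library and the order was the same in both. By this rule Pecam1 was 1.26-fold above Cdh5 (log2 ratio 0.34 ± 0.02, SD, n = 2), and Icam2 was 1.35-fold above Pecam1 (0.43 ± 0.12). Esam was 1.51-fold above Cdh5 (0.60 ± 0.12), and Cdh5 was 2.75-fold above Cldn5.

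The surface sialomucins and the diaphragm protein of fenestrae were among the higher members. Plvap, which forms the diaphragms of fenestrae and caveolae and also marks endocardium, had 104 and 107 TPM. Cd34, a sialomucin of capillary endothelium and of blood progenitors, had 65.8 and 72.2 TPM. Emcn (endomucin), a sialomucin of veins, capillaries and endocardium, had 47.0 and 49.9 TPM. Neither library put them in another order, and Cd34 was 1.42-fold above Emcn. Plvap also overlaps Gtpbp3 on the opposite strand, which was at 9.81 and 9.53 TPM. The sources used here do not say whether the counting used strand, so reads in overlapping stretches of such pairs cannot be told apart.

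Egfl7 encodes a protein secreted by endothelium into the matrix around vessels, and it had 133 TPM in replicate 1 and 152 in replicate 2. The gene lies on chromosome 2 (26580014 to 26593120, plus strand) and hosts the endothelial microRNA miR-126a, whose hairpin (26591357 to 26591429) falls within intron 7 of the 10-exon transcript Egfl7-202. The mature sequence, credited to RefSeq (GRCm38.p6, chr2:26591402-26591423, plus strand), is shown because the gene carries this second product. Its seed, bases 2 to 8, is in capitals:
mmu-miR-126a-3p: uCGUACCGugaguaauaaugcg
The miRNA gene itself was listed at 0 TPM. Its annotated length of 73 nt had an effective length of 0 in the tables, and the libraries were made from RNA above 200 nt, so this entry holds no measurement of the miRNA. Egfl7 was 159-fold above its paralog Egfl8, with 140-fold and 181-fold in the libraries. In protein-coding transcripts alone it was 241-fold above Egfl8, with log2 ratios of 7.47 and 8.35. Egfl8 averaged 0.895 TPM, below the detection minimum, so these folds are imprecise. Egfl7 overlaps Agpat2 on the opposite strand, which was at 16.9 and 19.0 TPM. How far Agpat2 reads reached the value of Egfl7 was not tested.

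The other matrix and angiogenic proteins were lower than Egfl7 and were not at 1 common level. Ecscr, a surface protein that takes part in endothelial migration, had 45.3 and 54.97 TPM. Mmrn2, a matrix protein of the endothelium that binds Clec14a, had 22.9 and 25.2 TPM, and Clec14a, a C-type lectin domain receptor, had 11.4 and 13.2 TPM. Mmrn2 was 1.96-fold above its partner (log2 ratio of Clec14a to Mmrn2 −0.97 ± 0.06, SD, n = 2). Vwf, the clotting protein stored in endothelial granules and in platelets, had 13.0 and 11.1 TPM and was among the 3 genes whose TPM was lower in replicate 2. Of Vwf's value, 54.9% ± 5.4 (SD, n = 2) lay in transcripts of non-coding types, which is described with the transcripts. Plvap was 8.81-fold above Vwf with all transcripts and 28.9-fold with protein-coding transcripts alone. The protein-coding sum leaves out a Vwf transcript of 8817 nt that was not in M21 and held 14.1% ± 2.7 of Vwf's TPM.

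Among the angiopoietin genes the receptors and the agonist were readily measured and the context-dependent ligand was low. Tek (Tie2), the angiopoietin receptor on chromosome 4 (94739289 to 94874976, plus strand), had 34.65 and 40.15 TPM. Tie1, the related orphan receptor that modulates Tek, had 44.85 and 50.01 TPM. Tie1 was 1.27-fold above Tek in TPM (log2 ratio 0.34 ± 0.04, SD, n = 2). Angpt1, the agonist of Tek that is also made by myocardium and perivascular cells, had 24.2 and 26.7 TPM. Angpt2, which can oppose Angpt1 at Tek, had 2.56 and 1.90 TPM, the lowest level of the 34 genes, from 260 and 180 reads. Angpt1 was 11.5-fold above Angpt2, with 9.46-fold and 14.1-fold in the libraries, and it held 91.4% ± 1.7 of the summed TPM of Angpt1, Angpt2 and Angpt4. Angpt2 lies on chromosome 8 and overlaps Mcph1 on the opposite strand, a gene at 8.05 and 7.83 TPM, which exceeds Angpt2 itself. How far Mcph1 reads reached the value of Angpt2 was not tested. In the list of 8 genes of the angiopoietin and Tie system, 7 were detected, with Angpt4 below 1 TPM, and the list's median was 3.54 TPM.

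The bases before the start of Tek are shown because Tek and the SoxF factors, whose known target sites hold the letters ACAAT, are all members. The window is the 250 bases before the RefSeq start (GRCm38.p6, chr4:94739039-94739288, plus strand). Transcripts starting within 500 bases of that RefSeq start held 100% and 98.4% of Tek's TPM in the libraries. Capitals mark matches on either strand to ACAAT, to the E-box CANNTG, to the GATA motif AGATAA and to the ETS core CCGGAA or CCGGAT:
Tek promoter window: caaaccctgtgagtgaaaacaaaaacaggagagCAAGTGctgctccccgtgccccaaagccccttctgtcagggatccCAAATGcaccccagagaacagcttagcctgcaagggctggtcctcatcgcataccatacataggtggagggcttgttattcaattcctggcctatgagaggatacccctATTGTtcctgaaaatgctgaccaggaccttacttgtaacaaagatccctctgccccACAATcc
ACAAT matched at 63 and 7 bases before the start, and CANNTG at 217 and 172. Over the table, ACAAT occurred in the windows of 6 of the 13 members listed there (46.2%), against 30.9% of 27025 genes, and CANNTG in 8 of 13 (61.5%) against 69.3%. Some genes have several windows, and counted by window ACAAT was in 6 of 19 (31.6%) against 27.7%, and CANNTG in 10 of 19 (52.6%) against 66.2%. The ETS core occurred in 1 of 13, the window of Klf2, against 17.5% of all genes, and the longer ETS motif CCGGAAGT in 0 of 13 against 3.2%. AGATAA occurred in 1 of 13, that of Erg, against 11.4%. The median GC content was 58.0% for the 19 member windows and 52.4% for all 32851 windows. These matches describe letters in a window of fixed length, and binding was not measured.

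The adrenomedullin receptor is a pair of proteins, the receptor Calcrl and the membrane partner Ramp2, which sets its ligand preference and whose loss is lethal to the mouse embryo. Ramp2, on chromosome 11, had 164 TPM in replicate 1 and 193 in replicate 2, the highest level of the 34 genes. Calcrl, on chromosome 2 (84330626 to 84425411, minus strand), had 30.4 and 31.5 TPM. Ramp2 was thus 5.74-fold above Calcrl over all transcripts, and 3.75-fold above it in protein-coding transcripts alone. The annotation gives Ramp2 a same-strand overlap with Vps25, an endosomal sorting gene at 76.8 and 90.6 TPM, and the estimated counts of Ramp2 were not whole numbers, which marks reads shared with other features. How far that sharing set the level of Ramp2 was not tested. Ramp2 held 87.7% ± 0.8 (SD, n = 2) of the summed TPM of the 3 Ramp genes. It was 7.84-fold above Ramp1, the partner in the receptor for calcitonin gene-related peptide, and 79.6-fold above Ramp3. In protein-coding transcripts alone the share was 76.05% ± 1.60 and the folds were 3.46 and 39.0. In the 9-gene list of this receptor system, the ligand gene Adm had 7.61 and 9.89 TPM, Ackr3 had 29.8 and 31.5, and 7 genes were detected. The ligand genes Adm2 and Calcb were below 1 TPM.

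S1pr1, the sphingosine-1-phosphate receptor that stabilises endothelial junctions, had 60.1 and 66.5 TPM and lies on chromosome 3 (115710433 to 115715072, minus strand). It held 63.2% ± 2.8 (SD, n = 2) of the summed TPM of the 5 receptors for this lipid. S1pr1 was 3.31-fold above S1pr2, which had 19.0 and 19.2 TPM, and 3.70-fold above S1pr3, which had 18.6 and 15.75. S1pr4 and S1pr5 were below 1 TPM, and 8 of 10 genes of the sphingosine phosphate list were detected. Among its enzymes, the lyase gene Sgpl1 had 22.6 and 21.9 TPM and the kinase gene Sphk2 had 13.6 and 13.7.

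The ETS-family members were spread over a 6.43-fold range. Ets1 had 36.4 and 39.55 TPM, Fli1 had 14.2 and 15.2, and Erg, which maintains endothelial identity, had 5.90 in both libraries. Ets1 was 2.59-fold above Fli1 (log2 ratio 1.37 ± 0.01, SD, n = 2), and Fli1 was 2.49-fold above Erg (1.31 ± 0.07). Fli1 (32422204 to 32542861) and Ets1 (32636221 to 32757820) are neighbours on chromosome 9 in opposite orientation, 93.4 kb apart with 0 protein-coding genes between them. Of the list of 16 ETS factors, 15 were detected, with Elf2 at 38.98 and 46.85 TPM and Ets2 at 34.9 and 39.0. Etv2, the ETS factor of the earliest endothelial progenitors, had 0.29 and 0.27 TPM, and Fli1 was 52.4-fold above it. Unlike Erg and Fli1, most of the listed ETS factors are made in many cell types.

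The SoxF factors, which act in arterial, venous and lymphatic specification, were ordered Sox18, Sox7 and Sox17 in both libraries. Sox18 had 27.0 and 29.6 TPM, Sox7 had 18.9 and 20.0, and Sox17 had 7.33 and 7.40. Sox18 held 51.3% ± 0.9 (SD, n = 2) of their summed TPM, Sox7 held 35.3% ± 0.3 and Sox17 held 13.4% ± 0.6. The shares differed little between the libraries. Sox18 was 1.45-fold above Sox7 and 3.83-fold above Sox17, and Sox7 was 2.64-fold above Sox17.

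The flow-responsive factors Klf2 and Klf4 were low and differed from each other. Klf2, induced by shear stress and required for vessel stability, had 11.7 and 11.6 TPM. Klf4 had 2.96 and 3.0 TPM. Klf2 was 3.91-fold above Klf4 (log2 ratio 1.97 ± 0.03, SD, n = 2) and was exceeded 2.04-fold by Klf6, a more widely expressed family member. All 13 genes of the shear stress list were detected, including the cerebral cavernous malformation genes Ccm2, at 42.25 and 48.98 TPM, and Pdcd10, at 37.9 and 39.05 TPM. The list's median was 20.5 TPM, which both Klf2 and Klf4 were below.

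Nfatc1, the endocardial factor of valve formation, had 15.6 TPM in replicate 1 and 16.45 in replicate 2. It held 47.9% ± 0.6 (SD, n = 2) of the summed TPM of the 4 calcium-regulated NFAT genes and was 2.08-fold above Nfatc2, 2.10-fold above Nfatc4 and 7.70-fold above Nfatc3. In protein-coding transcripts alone the share was 54.5% ± 2.1, and Nfatc1 was 4.45-fold above Nfatc2. Prox1, the regulator of lymphatic identity, which embryonic cardiomyocytes and hepatoblasts also make, had 12.3 and 14.2 TPM and lies on chromosome 1 (190118035 to 190170714, minus strand). Nfatc1 was 1.21-fold above Prox1 (log2 ratio 0.28 ± 0.09), and Prox1 was 17.7-fold above its paralog Prox2. The antisense gene Prox1os, on the opposite strand, had 4.53 and 8.46 TPM. Its reads and those of Prox1 cannot be told apart where the genes overlap.

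Cav1, the coat protein of caveolae, had 105.03 and 112.12 TPM, and Nos3, the endothelial nitric oxide synthase, had 26.4 and 28.7. Cav1 was 3.94-fold above Nos3 (log2 ratio 1.98 ± 0.02, SD, n = 2). Cav1 was also 5.49-fold above Cav2, while the muscle caveolin Cav3 had 58.6 and 71.8 TPM and the coat gene Cavin1 had 270 and 303. Nos3 held 97.9% ± 0.5 of the summed TPM of the 3 nitric oxide synthase genes. The neuronal and inducible genes, Nos1 and Nos2, were both below 1 TPM. Fabp4, a fatty acid binding protein of capillaries and fat cells, had 48.7 TPM in replicate 1 and 63.46 in replicate 2, and Gpihbp1, which carries lipoprotein lipase across capillary endothelium, had 9.67 and 10.7. Fabp4 was 5.46-fold above Gpihbp1 and stood 7.05-fold below Fabp5 and 14.6-fold below Fabp3, the family member of heart muscle.

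**Figure D2:**
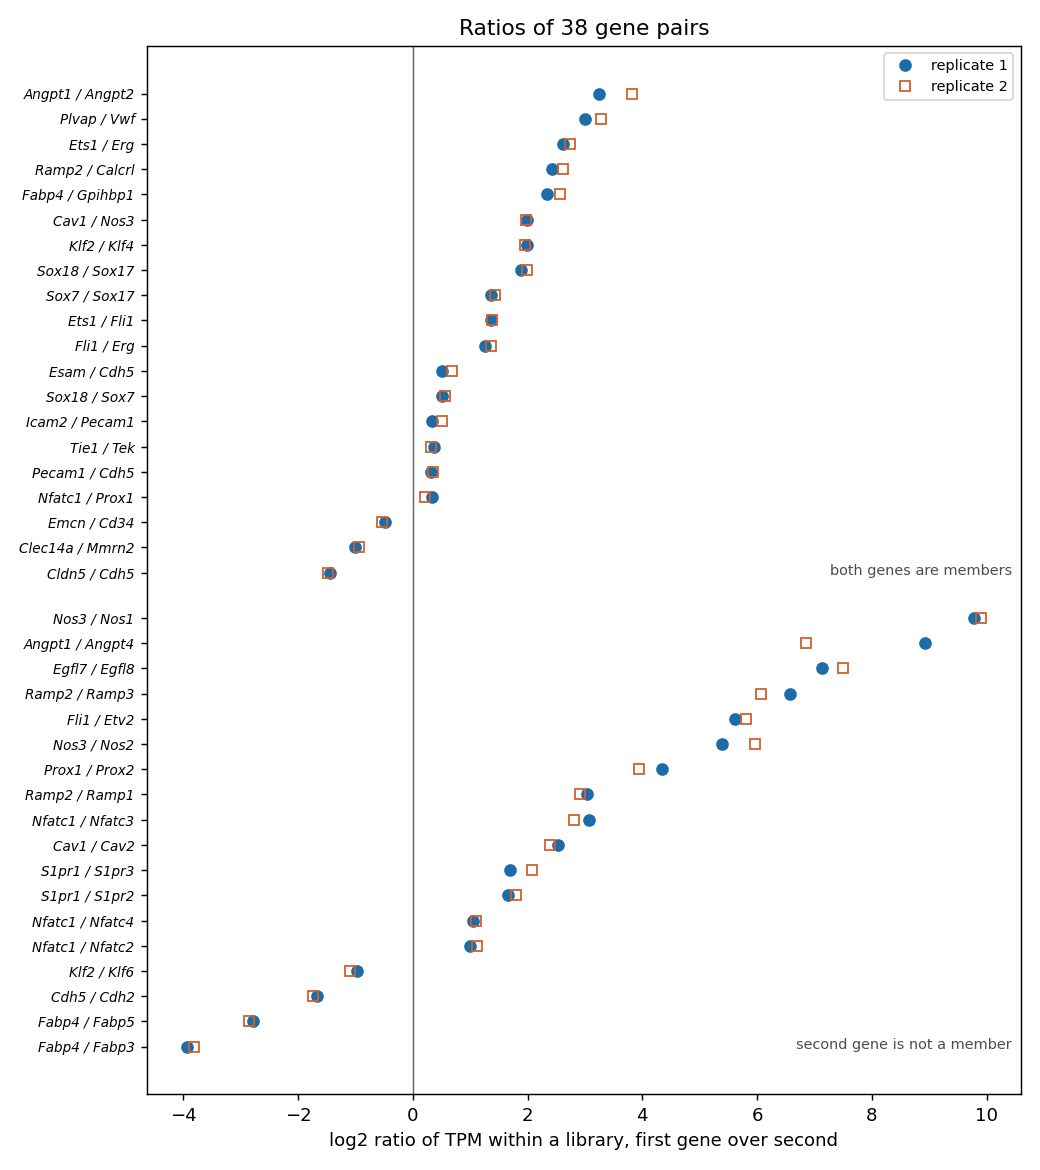
Log2 ratios of TPM within each library for 38 pairs of related genes, first gene over second, with 1 point per library; 0 marks equal levels. The libraries lie on the same side of 0 in every pair, from Fabp4 over Fabp3, where the first gene was 14.6-fold lower, to Nos3 over Nos1. The pairs were chosen with earlier results of these data known.

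All 38 pairs kept their order in both libraries with credibility intervals apart, of which 20 were pairs of members and 18 set a member against a related gene outside the set. The pairs were chosen with earlier results of these data known, so this count is not a measure of how often gene pairs differ. In 28 of 38 the ratio was at least 2-fold in each library. The 20 member pairs kept their direction in both libraries when protein-coding transcripts alone were summed, and the fold moved by over 1.5 times in 2 of them, Ramp2 to Calcrl and Plvap to Vwf. The 18 others also kept their direction, and the fold moved by over 1.5 times in 4: Ramp2 to Ramp1 and to Ramp3, Nfatc1 to Nfatc2, and Egfl7 to Egfl8. Among members, the protein-coding sums leave out 5 transcripts of Erg and Vwf that were not in M21. Neighbours in the order of all 34 levels were closer. By the same interval rule 9 of 33 neighbouring genes differed: Ramp2 from Egfl7, Egfl7 from Cav1, Plvap from Cd34, Tie1 from Cdh5, Tek from Calcrl, Nos3 from Angpt1, Mmrn2 from Sox7, Sox7 from Nfatc1, and Erg from Klf4. The other 24 neighbours were not separated, among them the 9 genes from Cd34, at 69.0 TPM, to Tie1, at 47.4 TPM, each against the next.

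Transcript tables gave the share of each gene's TPM held by each transcript. The 34 genes had 147 transcripts, 5 of them not in the M21 annotation. Of the genes, 10 had 1 transcript (among them Cdh5, S1pr1, Sox7, Sox18, Klf2 and Plvap) and 24 had several. The leading transcript was the same in both libraries in all 34, which was fixed in advance for the 10 genes with 1 transcript. Among the 24 genes with several transcripts, it held over 50% of the TPM in 18 and over 80% in 12, such as Ets1-201 with 95.8% ± 0.04 (SD, n = 2) and Tie1-201 with 85.8% ± 2.0. In 6 genes no transcript held over 50%: Nfatc1, Ramp2, Erg, Vwf, Sox17 and Egfl7. The same counts were not taken over all genes.

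Non-coding types took more than 10% of the TPM in 4 genes. In Ramp2 they held 55.8% ± 0.4 (SD, n = 2), led by Ramp2-205, a retained-intron transcript of 755 nt with 47.2% of the TPM. The coding transcripts of Ramp2 summed to 78.7 ± 8.1 TPM, against 178 ± 20 for the gene, which gave Ramp2 rank 4 among the members instead of rank 1. In Egfl7 non-coding types held 40.4% ± 1.0, led by retained-intron transcripts of 536 and 845 nt with 18.8% and 13.4%. Its coding transcripts summed to 84.8 ± 9.4 TPM against 142 ± 13. In Vwf the leading transcript was Vwf-209, a processed transcript of 456 nt with 34.7% ± 0.6, while Vwf-203, the transcript of 8834 nt that encodes the 2813-residue protein, held 19.6% ± 7.2. A second transcript of 8817 nt that was not in M21 held 14.1% ± 2.7. The annotated coding transcripts of Vwf summed to 3.68 ± 0.54 TPM against 12.0 ± 1.4 for the gene. In Calcrl, a processed transcript of 500 nt, Calcrl-203, held 32.25% ± 0.14, and the coding transcripts summed to 20.96 ± 0.59 TPM. With coding transcripts alone, Cav1 and Plvap were the highest members, and their own levels changed little. Such short transcripts carry few reads for a given TPM, and the division of shared reads between them and the long transcripts is an estimate.

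**Figure D3:**
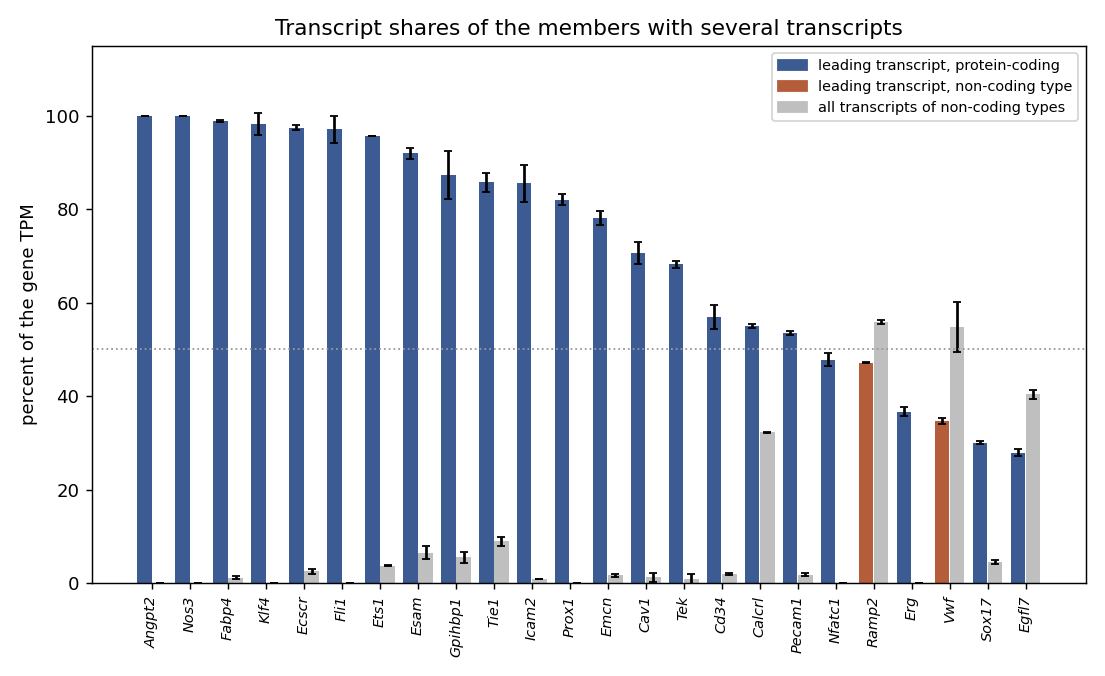
Percent of the gene TPM held by the leading transcript (left bar, mean) and by all transcripts of non-coding types (right bar, mean) in the 24 members with several transcripts; error bars are SD of 2 libraries and the dotted line marks 50%. In Ramp2 and Vwf the leading transcript is of a non-coding type, and non-coding types hold 55.8% and 54.9% of the TPM.

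Several members had annotated transcripts from more than 1 start, grouped here where successive annotated starts lay within 500 bases. The shares are estimates for annotated transcripts, and use of the starts was not measured. In Cav1, on chromosome 6, the upstream group (17306335 to 17306423) held 76.1% ± 1.5 (SD, n = 2) of the TPM and the downstream group (17307048 to 17307723) held 23.9% ± 1.5. The leading transcripts of the groups were Cav1-201, with 70.6% and an open reading frame of 178 codons, and Cav1-202, with 22.0% and 147 codons. Both starts have their own entry in RefSeq, and the 250 bases before each are shown because the transcripts that start there encode different lengths of caveolin-1. The windows (GRCm38.p6, plus strand) are chr6:17306085-17306334 and chr6:17307390-17307639, and capitals mark the same motifs as for Tek:
Cav1 upstream window: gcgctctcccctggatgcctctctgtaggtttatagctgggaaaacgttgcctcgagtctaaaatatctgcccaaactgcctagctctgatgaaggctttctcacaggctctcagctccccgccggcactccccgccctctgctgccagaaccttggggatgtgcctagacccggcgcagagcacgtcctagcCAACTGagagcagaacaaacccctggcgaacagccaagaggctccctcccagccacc
Cav1 downstream window: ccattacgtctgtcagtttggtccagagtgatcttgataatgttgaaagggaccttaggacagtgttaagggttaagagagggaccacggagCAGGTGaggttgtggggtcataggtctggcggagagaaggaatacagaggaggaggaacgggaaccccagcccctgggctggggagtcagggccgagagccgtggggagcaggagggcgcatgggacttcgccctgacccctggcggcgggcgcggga
CANNTG matched once in each window, 57 bases before the upstream start and 158 bases before the downstream start, and no other of the searched letters occurred in either. Transcripts starting within 500 bases of these RefSeq starts held 77.2% and 75.1% of Cav1's TPM at the upstream start in the libraries, and 22.5% and 24.3% at the downstream start. Transcripts of the upstream start held the larger share in both.

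Other genes whose TPM was divided between annotated starts included endocardial and receptor genes. In Nfatc1, transcripts of the downstream start held 47.8% ± 1.4 (SD, n = 2) of the TPM, and their leading transcript Nfatc1-201 encodes 703 codons. Those of the upstream start, Nfatc1-202 and Nfatc1-204, encode 827 and 939 codons and held 52.2% ± 1.4. Nfatc1-202 had 40.55% in replicate 1 and 30.4% in replicate 2, and Nfatc1-204 had 12.6% and 20.8%, so the sum by start differed less between the libraries than each transcript did. In Calcrl, the downstream start of Calcrl-202 held 54.96% ± 0.40 and the upstream start held 45.03% ± 0.40, and the coding transcript of each has a reading frame of 463 codons. In Sox17 the upstream starts held 65.4% ± 0.7 and the downstream starts 34.6% ± 0.7. There the downstream coding transcript Sox17-204 has an incomplete reading frame of 170 codons in the annotation, against 419 codons in Sox17-201 and Sox17-202. In Prox1 the upstream start held 89.6% ± 2.7, and Prox1-201, Prox1-202 and Prox1-203 all encode 737 codons. In Egfl7 the start group at 26583864 to 26583905, which holds the leading transcript Egfl7-202, held 36.5% ± 0.4, and the groups inside the gene body from 26590520 to 26591446 and from 26592023 to 26592147 held 32.5% ± 2.6 and 21.9% ± 1.0.

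Splice forms of adhesion genes were also divided in like proportions in the libraries. Cd34-201, which encodes 382 codons, held 56.9% ± 2.5 (SD, n = 2), and Cd34-202, a form of 325 codons with a shorter reading frame, held 41.2% ± 2.4. Pecam1-203, of 697 codons, held 53.5% ± 0.3, and Pecam1-202, of 716 codons, held 26.0% ± 1.4. Emcn-201, of 248 codons, held 78.1% ± 1.5 and Emcn-202, of 261 codons, held 20.2% ± 1.2. Tek-203, of 1123 codons, held 68.3% ± 0.8.

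Replicate 2 was then set against replicate 1. The libraries held 34545746 and 35137109 reads on genes, and spike-in RNA took 5.96% of all reads in replicate 1 and 2.56% in replicate 2. The median TPM ratio of all genes with enough reads was 0.15 on the log2 scale. It was 0.05 when the TPM total left out spike-ins and −0.05 when it also left out globins and mitochondrial genes, so ratios were taken from counts scaled by the trimmed mean of M-values (TMM), for genes averaging 50 or more reads. The estimated counts of members ran from 180 to 7301 per library. They were whole, within 0.005, in 28 members and not whole, which marks shared reads, in Ramp2, Cd34, Nos3, Angpt1, Prox1 and Sox17. On that scale the median log2 ratio of the 34 genes was −0.02, with 13 higher and 21 lower in replicate 2, and that of all 13766 genes was −0.003. The split between higher and lower depends on the scaling: it was 15 to 19 with DESeq2 size factors, 16 to 18 with total counts, 30 to 3 (1 equal) for TPM and 34 to 0 with spike-in scaling, under which the median of all genes itself was 1.29. Under each of these the median of the members was within 0.03 of that of all genes.

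No member passed 2-fold between the libraries, against 1.01% of all genes, while under spike-in scaling 33 of 34 did so, against 93.1% of all genes. The ratios of 31 of 34 members lay within 0.2 on the log2 scale (91.2%), as did those of 77.9% of all genes. A 95% interval from counting error alone, which covers no other error, excluded equal scaled counts in 11 of 34 members, against 36.4% of all genes, so this count is near the background. The highest ratios were those of Fabp4 at 0.26 (interval 0.15 to 0.37), Ecscr at 0.15 (0.04 to 0.26) and Icam2 at 0.14 (0.05 to 0.23). The lowest were those of Angpt2 at −0.57 (−0.86 to −0.30), Erg at −0.22 (−0.44 to 0.01) and Sox17 at −0.18 (−0.41 to 0.05). Angpt2, from 260 and 180 reads, lay farthest from 0 of the 34, while Gpihbp1, from 204 and 221 reads, had 0.07 (−0.21 to 0.35). Its ratio to Angpt1 carried that difference into the pair described above. By role, 9 of 10 transcription factors and 6 of 8 adhesion and surface genes were lower in replicate 2 on the TMM scale. So were 2 of 7 receptors and ligands and 2 of 5 matrix and angiogenic protein genes. Of the caveolar, nitric oxide and lipid handling genes 2 of 4 were lower, and of all genes 6992 of 13766. The counting interval of each transcription factor included equal scaled counts. On the TPM scale the counts by role, in the same order, were 1, 0, 1, 1 and 0, against 2717 of 13766. With spike-in scaling all members were higher.

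**Figure D4:**
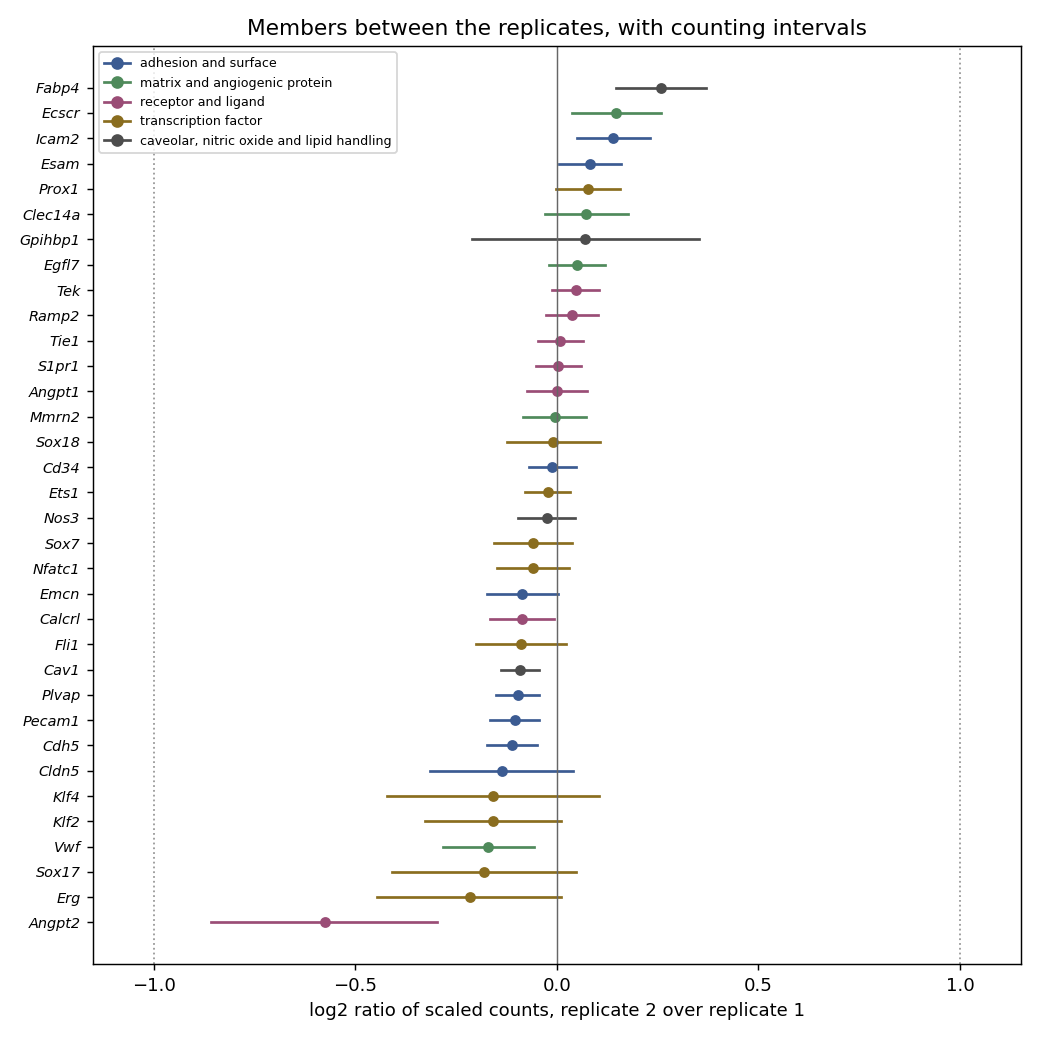
Log2 ratio of TMM-scaled counts, replicate 2 over replicate 1, for the 34 members in order, coloured by role; lines are 95% intervals from counting error and dotted lines mark 2-fold. All points lie between the dotted lines, and Angpt2, at −0.57, is farthest from 0.

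Markers of other cells that heart tissue or its dissection could hold were examined alongside. The labelled tissue showed its defining genes: all 10 cardiomyocyte markers were detected, with Actc1 at 8858 and 10485 TPM. All 12 hepatocyte markers matched, and the 11 with enough reads all exceeded 2-fold toward replicate 2, and the median of their log2 ratios was 2.54. Afp, a fetal liver product, had 22.0 and 165 TPM, and the summed level of the list was 103 TPM in replicate 1 and 540 in replicate 2. Liver endothelium shares most of the genes described here, and of 7 markers of liver sinusoids, Stab1, which other endothelium and macrophages make, had 38.7 and 36.0 TPM and is the highest. The sum of these 7 was 67.2 and 67.8 TPM. Of the 6 with enough reads, 2 were higher and 4 lower in replicate 2 on the TMM scale, with a median of −0.04, and on the TPM scale 4 were higher and 2 lower. The 2 higher on the TMM scale were Stab2, at 0.42 and 0.94 TPM with a log2 ratio of 1.30, and Clec4g, at 2.91 and 4.80 TPM with 0.68. Fcgr2b, below the read minimum, had 0.59 and 0.22 TPM. Macrophage markers had a median log2 ratio of −0.33. In replicate 2, 10 of 11 were lower on the TMM scale and 8 of 11 on the TPM scale. Of all 13766 genes, 50.8% and 19.7% were lower on these scales. The macrophage sums were 219 and 228 TPM, of which Lyz2 alone had 73.3 and 97.8. Platelet and megakaryocyte markers, of which Pf4 had 40.3 and 48.0 TPM, had a median of 0.24 and sums of 63.6 and 80.1 TPM. All 7 with enough reads were higher in replicate 2 on the TMM scale, against 6774 of all 13766 genes. Gp6, below the read minimum, had 0.58 and 0.55 TPM. Vwf, which megakaryocytes also make, had a log2 ratio of −0.17. Erythroid markers had a median of −0.73, with 8 of 10 lower, 2 of them past 2-fold, and sums of 135788 and 90456 TPM. The 2 higher, both past 2-fold and named after their values were seen, were the erythroid factor genes Klf1 (1.59) and Gata1 (1.17). Of 6 markers of blood progenitors, which share Cd34 with endothelium, 3 were detected, with sums of 15.0 and 17.4 TPM. Spike-in scaling shifts all ratios upward alike and turns the negative medians given here positive. None of these listed markers was at 0 in either library. Their part in the values of the members was not tested.

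**Figure D5:**
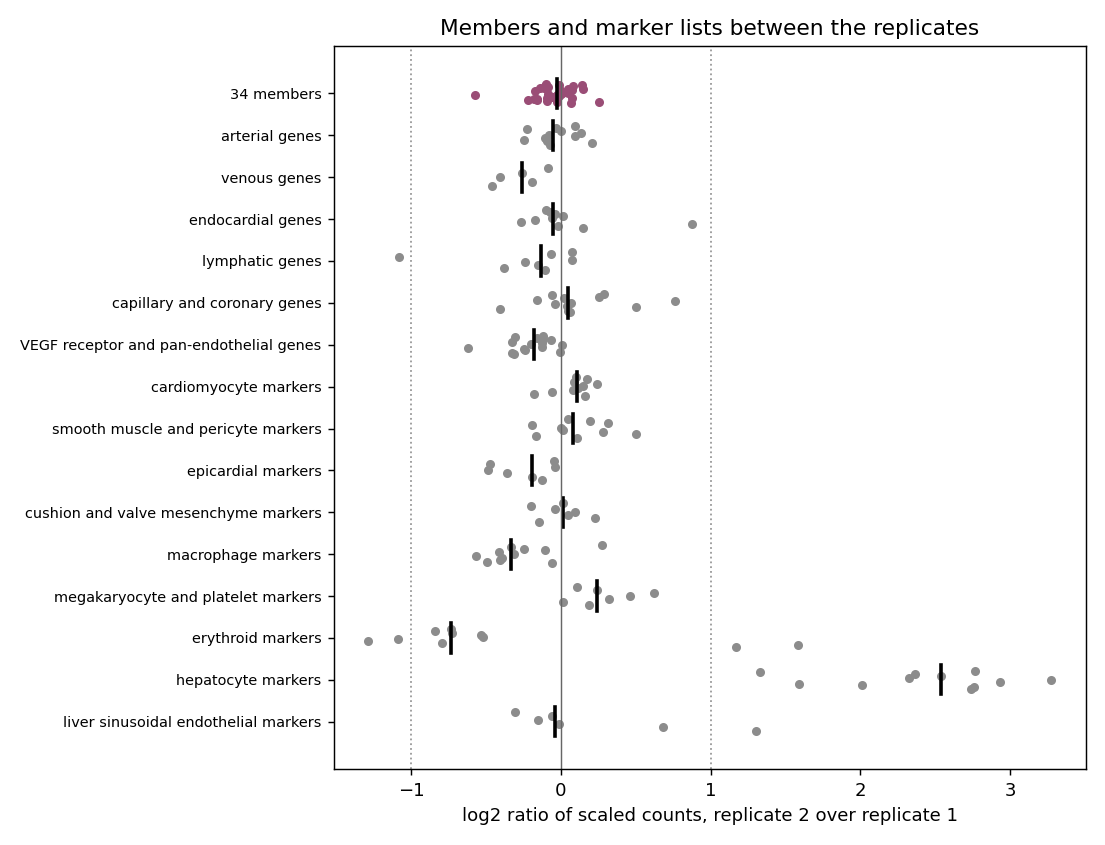
Log2 ratio of TMM-scaled counts, replicate 2 over replicate 1, for the 34 members and for genes of marker lists with a mean count of at least 50; each point is a gene, black bars are medians and dotted lines mark 2-fold. Members lie near 0 with a median of −0.02, while hepatocyte markers have a median of 2.54 and erythroid markers of −0.73.

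The vessel classes to which members belong were described with genes outside the set. Of 12 arterial genes, none of them a member, 11 were detected, with the connexin genes Gja5 at 87.0 and 103 TPM and Gja4 at 25.6 and 24.2, and the Notch target Hey2 at 29.9 and 32.3. Sema3g was below 1 TPM. Gja5 and Hey2 are also made by embryonic cardiomyocytes, so these levels are not those of arteries alone. The 5 venous genes were all detected, led by the member Emcn, with the ephrin receptor gene Ephb4 at 29.2 and 27.1 TPM and the apelin receptor gene Aplnr at 21.5 and 18.2. All 5 were lower in replicate 2 on the TMM scale, with a median of −0.26, against 50.8% of all genes. On the TPM scale 4 of 5 were lower, against 19.7%, and with spike-in scaling all 5 were higher.

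Of 10 endocardial genes, which include the members Plvap, Nfatc1 and Vwf, all were detected, with a median of 14.0 TPM. Gata4, which cardiomyocytes and cushion cells also make, had 84.3 and 88.95 TPM, Tmem108 had 61.3 and 69.2, and Cgnl1 had 30.0 and 33.7. Cytl1, chosen after its values were seen, had 3.94 TPM in replicate 1 and 8.01 in replicate 2, a log2 ratio of 0.88. The 3 members of this list had ratios between −0.17 and −0.06. Among 9 lymphatic genes, 8 were detected, with Thy1 below 1 TPM. Pdpn, which epicardium also makes, had 19.7 and 22.9 TPM, the member Prox1 had 12.3 and 14.2, and Ccl21a, a chemokine of lymphatic endothelium and lymphoid tissue, had 19.75 and 10.3. Ccl21a was more than 2-fold lower in replicate 2 (log2 ratio −1.08), whereas Prox1 had 0.08, so these genes of the same list did not move together.

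In the capillary and coronary list all 13 genes were detected, with the fatty acid transporter gene Cd36 at 41.8 and 46.9 TPM and the lipase gene Lpl at 80.03 and 83.18, beside the members Fabp4 and Gpihbp1. Fabp5 had 337 and 456 TPM and, like Fabp4, was higher in replicate 2, with a log2 ratio of 0.29. Of 17 VEGF receptor and other pan-endothelial genes, 16 were detected: the TGF-beta co-receptor gene Eng had 121 TPM in both libraries, Kdr had 27.0 and 26.7, and Cd93 had 19.7 and 20.0. Of these, 15 of 16 were lower in replicate 2 on the TMM scale, with a median of −0.18, against 50.8% of all genes. Of the 34 members 21 were lower, and the difference was not tested. On the TPM scale 9 of the 16 listed genes were lower, against 19.7% of all genes. With spike-in scaling all 16 were higher. In the junction list of 14 genes, all detected, the catenin gene Ctnnb1 had 205 and 225 TPM and the cadherin gene Cdh2 had 122 and 130. Cdh2, the N-cadherin of cardiomyocytes, was 3.27-fold above Cdh5. Ctnnb1 is made by most cells of the heart, unlike Cdh5.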

How the data were processed

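Total RNA-seq of E13.5 heart, 2 libraries of 1 group, was analysed from gene and transcript tables. Each table holds, per the file headers, an estimated count for each gene or transcript, which the authors derived, per the deposited file descriptions, from reads aligned to the transcriptome (mm10, annotation M4) and did not normalize. TPM values were deposited too and, going by their column name, divide by effective length and by the sum over all features, spike-ins included. The interval bounds of TPM, treated as a signal, are as deposited, and their level is not stated. The percent columns of the deposited transcript tables are, per the file headers, each transcript's share of its gene's TPM. Per the file headers the columns are those RSEM writes; the aligner and quantifier are not named there.

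Identifiers were matched to GENCODE M21, and 42462 of 43346 genes matched. Estimated counts were rounded for TMM factors (edgeR 4.0.16) and DESeq2 1.42.0 size factors in R 4.3.3. Spike-ins (5.96% and 2.56% of reads) and features without a gene were kept out of library sizes. Replicate ratios added 0.5 to scaled counts, required a mean of 50 reads, and were called past 2-fold. The ratio step was tested on simulated data. Counting intervals are exact conditional binomial intervals at 95% and cover no error but that of counting; without molecular identifiers, reads may be copies of the same molecule. The labels call the libraries biological replicates. Other steps used Python 3.11.15, pandas 2.3.3, numpy 2.4.6, scipy 1.17.1 and matplotlib 3.10.9. No column belonged to a sample outside the series.

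Members, pairs and lists were chosen with earlier results of these data known. Of 249 entries in the member and marker lists, 243 matched. Named genes are all members, the genes paired with them, up to 4 highest genes of a list, those below 1 TPM where 4 or fewer, and the 3 highest and lowest replicate ratios. Genes overlapping a member were named by position, and others outside this rule were chosen after their values were seen. Alternatives covered thresholds, scaling, posterior mean estimates and the omission of either library; sums over protein-coding transcripts, and the alternatives for the order of levels and for list thresholds, were chosen after seeing the data. Promoter and miRNA sequences come from RefSeq tables (GRCm38.p6), in which 13 of the 34 members had a promoter window. A planned comparison of protein sequences was not run.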

Additional observations from a re-analysis of the deposited data

How the results depend on the processing

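The median level of the members, 29.6 TPM, became 32.2 when TPM was rescaled without spike-ins, 39.0 without spike-ins, globins and mitochondrial genes, and 27.9 with protein-coding transcripts alone, an alternative chosen after seeing the data. It ranged from 28.7 to 30.5 when either replicate was left out. The median log2 ratio between the libraries, −0.02, became 1.27 with spike-in scaling and 0.12 for TPM, and the members past 2-fold went from 0 to 33 with spike-in scaling. By construction these scalings move all genes with the members. With DESeq2 size factors, total counts and a pseudocount of 5, the median ratio moved by less than counting error, and the count past 2-fold, where run, was 0. The other read minimums, up to a mean of 200, dropped no member, so the median ratio and the count of 0 could not change. Detection of members gave 34 at 0.5 TPM, 32 at 5 TPM and 29 at 10 TPM. The share of all protein-coding genes, 57.3%, was taken at 1 TPM alone. The 38 called pairs were 38 in either library alone, which was fixed in advance, because a call already required both libraries. Neighbours that differed in the order of levels were 9 in both libraries, and 11 and 13 in replicate 1 and replicate 2 alone. With the 10 genes of 1 transcript counted in, leading transcripts over 50% were 28 under posterior mean shares, and 22 at 80%. They were also 28 in either library alone, a count that could not fall, because the share had to pass in both. Of the 209 genes in the lists outside the members, 185 were detected at 1 TPM, 193 at 0.5 TPM and 132 at 5 TPM. No paired analysis was possible because the series holds 1 group. Depth limits Angpt2, with 180 reads in replicate 2, and Gpihbp1, with 204 and 221 reads.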
